A study of Bombyx mori with 4 samples.

Results

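Lipases of the larval midgut were followed in 4 libraries of the silkworm, Bombyx mori. The set held 6 of the 5558 gene models in the deposited table, given as a list of identifiers: a triacylglycerol lipase (BGIBMGA010400), intestinal lipase 6 (BGIBMGA002669), the neutral lipases BGIBMGA001508, BGIBMGA001507 and BGIBMGA003920, and an acidic lipase (BGIBMGA011777). The members were chosen by product name and identifier from an earlier reading of these same 4 libraries, with their RPM values and heat and variety ratios in view, so levels and ratios are given as a description. Midguts were taken on day 2 of the last larval instar from 932, a variety labelled heat-tolerant, and of HY, a variety labelled heat-sensitive. Each variety gave 1 library of untreated larvae (932 control, HY control) and 1 of larvae exposed to high temperature (932 heat, HY heat). The sources used here give neither the temperature nor the length of the exposure, nor the number of larvae behind a library. Each group is 1 library, so differences are between libraries and have no replicates behind them. Each library enters both a heat and a variety comparison, so these are not independent.

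Digestive lipases are secreted into the gut lumen by the midgut epithelium, where they release fatty acids from the lipids of the food for uptake by the same cells. Neutral lipases resemble the pancreatic lipase of vertebrates, and in moths and butterflies they form a large gene family. Acidic lipases belong to a separate family, related to the lysosomal and gastric lipases of vertebrates. The names used here are those of the best protein hit listed for each model. For the triacylglycerol lipase that hit was a silkworm protein (LOC692849 in RefSeq). For intestinal lipase 6 it was a protein of the bertha armyworm Mamestra configurata, for BGIBMGA003920 one of the monarch butterfly Danaus plexippus, and for the remaining members proteins of the cotton bollworm Helicoverpa armigera. BGIBMGA001507 and BGIBMGA001508 had the same best hit. The acidic lipase BGIBMGA011777 shared its hit with another 2 models of the table, BGIBMGA010639 and BGIBMGA010640. Whether tags were split between such similar genes is not stated, so the separate values of these genes are uncertain to that extent.

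Values are tags per 1000000 tags of the library (RPM) and are not corrected for gene length, so levels are compared between libraries and not between genes. The library totals lay between 5799074 and 6139297 tags, of which the listed genes held 18.6% in 932 control, 15.2% in 932 heat, 11.6% in HY control and 14.997% in HY heat. Intervals in square brackets are exact 95% intervals and cover counting error only. The midgut marker list (aminopeptidases N, peritrophins, intestinal mucins, V-ATPase subunits and cadherins, 19 genes) summed to 4428 to 5399 RPM in the 4 libraries, with 16 or 17 genes above 0. Single markers of that list were less even: the mucin BGIBMGA001480 read 168 RPM in control and 38.95 after heat in 932, and 3.10 and 26.5 in HY. Peritrophin 1 (BGIBMGA001504) read 60.9 and 12.9 RPM in 932 and 0.34 and 3.66 in HY, and aminopeptidase N-5 (BGIBMGA008063) 233.6 and 198.5 RPM in 932 and 23.8 and 6.83 in HY, control before heat. The fat body list (5 genes) summed to at most 11.3 RPM, and vitellogenin BGIBMGA010401 and the arylphorin BGIBMGA008860 were listed at 0 throughout. The silk gland list (3 genes) summed to 24.3 to 54.7 RPM, nearly all of it fibroinase, a protease that the name pattern took in. Muscle genes (13) summed to 668 to 899 RPM. Haemocyte genes (13) summed to 16.2 to 22.5 RPM in 3 libraries and to 97.7 RPM in HY heat, where hemolin alone read 87.1 RPM. Cuticle genes (19) summed to 2713 to 3811 RPM in 3 libraries and to 1489 RPM in HY heat. Of these, CPH45 (BGIBMGA004124) read 1902 RPM in HY control and 57.3 in HY heat. The CPH43 genes BGIBMGA013778 and BGIBMGA005302 read 841 and 743 RPM in HY control, and 739 and 682 in HY heat. The part of these lists in the lipase values was not tested. In RNA of whole midguts, fewer cells that make a lipase and less lipase RNA per cell cannot be told apart.

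The lipases held a widely different share of the tags in the 4 libraries. Together they took 14.2% of the tags of listed genes in 932 control [14.1 to 14.2], 5.58% in 932 heat [5.53 to 5.63], 0.678% in HY control [0.658 to 0.698] and 3.17% in HY heat [3.13 to 3.21]. The triacylglycerol lipase alone took 12.3% in 932 control. Without it the remaining 5 took 1.88% in 932 control, 3.45% in 932 heat, 0.271% in HY control and 1.36% in HY heat. The order of the 932 libraries therefore turned with that gene: with it the control library was higher, and without it the heat library. Both ways HY control was the lowest.

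**Figure D1:**
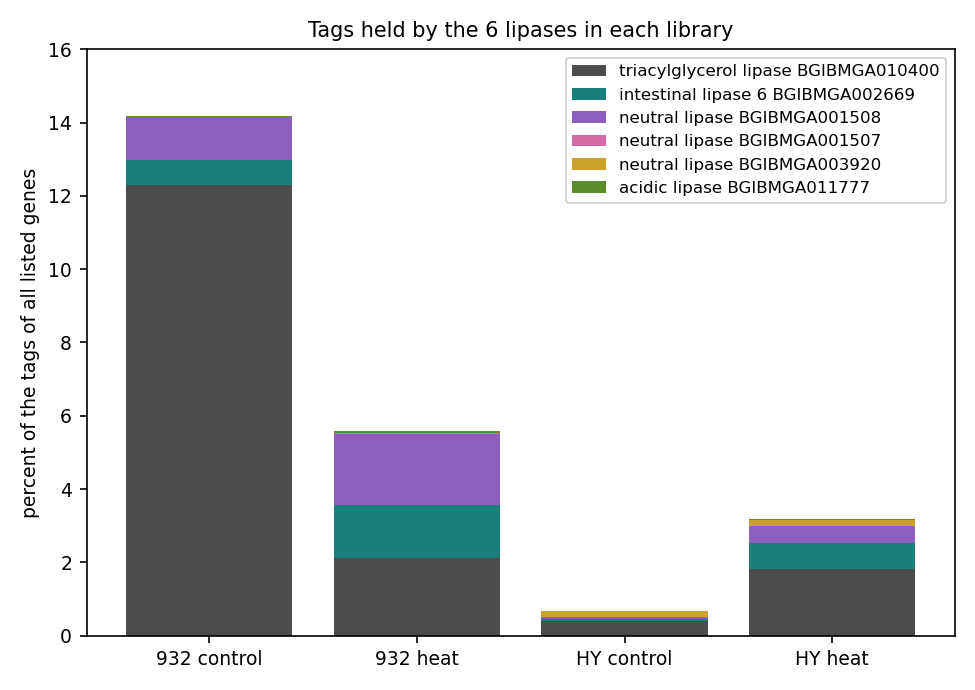
Percent of the tags of all listed genes held by each of the 6 lipases (stacked bars, 1 bar per library). The bar of 932 control reaches 14.2%, of which the triacylglycerol lipase makes up 12.3%, and the bar of HY control reaches 0.678%.

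The make-up of the lipase tags also differed. The triacylglycerol lipase gave 86.7% of the tags of the 6 genes in 932 control and 38.1% in 932 heat, where BGIBMGA001508 gave 34.7% and intestinal lipase 6 gave 26.0%. In HY its share was 59.98% in control and 57.1% after heat. BGIBMGA003920 gave 24.4% of the lipase tags in HY control, 4.56% in HY heat and under 1% in both 932 libraries, at 0.0117% and 0.0283%. These are shares of tags, and a longer transcript may yield more of them.

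The triacylglycerol lipase, by its name, splits triacylglycerols into fatty acids and partial glycerides. It read 22884.5 RPM in 932 control, 3229 in 932 heat, 470.4 in HY control and 2713 in HY heat. It was thus highest in 932 control and lowest in HY control, and the heated libraries of the varieties lay between them and close together. After heat it stood at 0.141 times its control level in 932 [0.139 to 0.143] and at 5.77 times in HY [5.54 to 6.01]. The 932 to HY ratio of this gene was 48.6 [46.8 to 50.5] in control larvae and 1.19 [1.17 to 1.22] after heat. All neighbours in this order were apart by more than counting error.

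Intestinal lipase 6 was named in the bertha armyworm, where it was found among gut lipases. Its level was 1263 RPM in 932 control, 2200 in 932 heat, 60.7 in HY control and 1075 in HY heat. Both heated libraries were above their controls, and HY control stood far below the other 3 libraries. The heat to control ratio was 1.74 [1.69 to 1.79] in 932 and 17.7 [15.9 to 19.8] in HY. In control larvae 932 stood 20.8 times above HY [18.7 to 23.2], and after heat 2.05 times [1.99 to 2.11].

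The neutral lipase BGIBMGA001508 followed the same order of libraries as intestinal lipase 6. It read 2182 RPM in 932 control, 2938 in 932 heat, 60.2 in HY control and 687 in HY heat. Heat to control was 1.35 [1.32 to 1.38] in 932 and 11.4 [10.2 to 12.8] in HY. The variety ratio was 36.3 [32.6 to 40.4] in control larvae and 4.28 [4.13 to 4.43] after heat, so a gap of over 4-fold remained for this gene. In both genes 932 control exceeded HY heat, by 3.18 times for BGIBMGA001508 [3.07 to 3.29] and by 1.17 times for intestinal lipase 6 [1.14 to 1.21].

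The neutral lipase BGIBMGA001507, with the same best hit, was much less often tagged. It read 38.9 RPM in 932 control, 30.5 in 932 heat, 0.69 in HY control and 25.1 in HY heat. HY control rested on 4 tags, against 151 to 239 in the other libraries, which lay close together. The heat to control ratio in HY was 36.5 [13.9 to 135.5] and in 932 it was 0.784 [0.642 to 0.956]. After heat the varieties could not be separated by counting, with a ratio of 1.21 [0.972 to 1.52].

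The acidic lipase BGIBMGA011777 was the member with at least a 2-fold higher level after heat in both varieties. It read 15.3 RPM in 932 control, 71.9 in 932 heat, 0.69 in HY control and 38.0 in HY heat. Both heated libraries were above both controls, which no other member showed. Heat to control was 4.70 [3.75 to 5.94] in 932 and 55.0 [21.2 to 203.7] in HY, where the control again held 4 tags. The variety ratio was 22.2 [8.39 to 83.2] in control larvae and 1.89 [1.61 to 2.23] after heat.

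The neutral lipase BGIBMGA003920 had the opposite variety pattern. It read 3.09 RPM in 932 control, 2.40 in 932 heat, 191.6 in HY control and 217 in HY heat. Both HY libraries were far above both 932 libraries, which held 19 and 14 tags. HY stood above 932 by 61.9 times in control larvae [39.5 to 103.2] and by 90.3 times after heat [53.6 to 165.7]. Heat to control was 0.776 [0.360 to 1.63] in 932, a difference within counting error, and 1.13 [1.04 to 1.23] in HY.

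**Figure D2:**
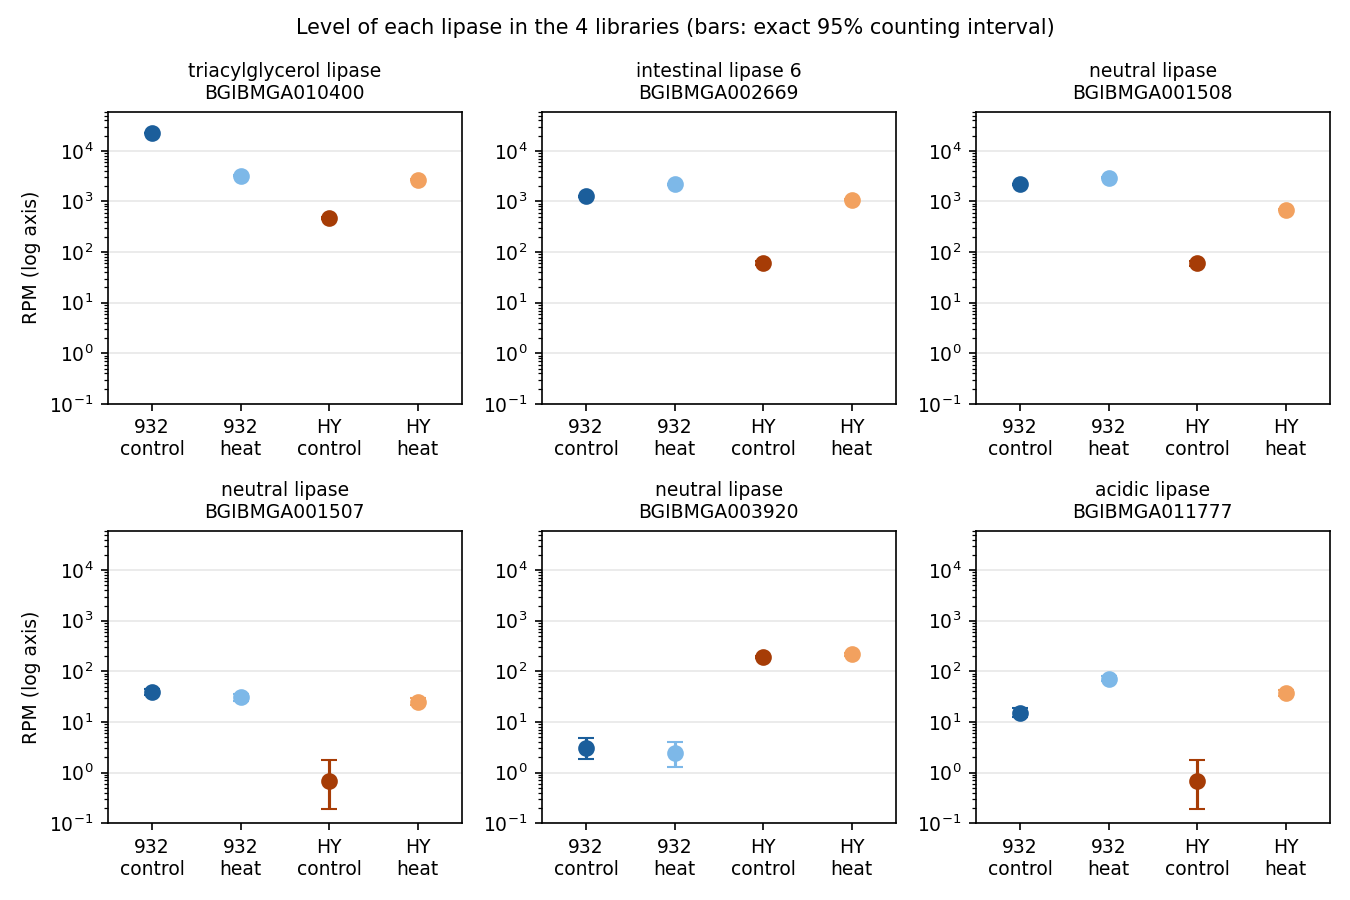
Level of each lipase in RPM (log axis) in the 4 libraries, 1 panel per gene and 1 point per library, with exact 95% counting intervals as bars. In 5 panels HY control is the lowest point, from 0.69 to 470.4 RPM, while BGIBMGA003920 reads 191.6 and 217 RPM in HY and 3.09 and 2.40 RPM in 932.

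For counts of genes, a member was called higher or lower when the log2 ratio of the value plus 1 reached 2-fold and 1 of the libraries held at least 1 RPM, which all 6 members met in each comparison. These counts come from the contrasts that were in view when the members were listed, and nothing is read from them. For heat in 932, 1 of 6 members was higher (BGIBMGA011777, log2 ratio 2.16) and 1 lower (the triacylglycerol lipase, -2.82), against 20.9% of 2708 genes called in either direction, 11.1% higher and 9.86% lower. The members' median was 0.08, and that of all genes 0.02. For heat in HY, 5 of 6 were higher and none lower, against 18.7% of 2810 genes in either direction, 14.1% higher and 4.59% lower, with a median of 3.72 for the members and 0.34 for all genes. Ranked by the ratio in HY, BGIBMGA011777 was at place 2 of 2810, intestinal lipase 6 at 4, BGIBMGA001507 at 6, BGIBMGA001508 at 10 and the triacylglycerol lipase at 24. The places of BGIBMGA011777 and BGIBMGA001507 rest on 4 tags in HY control and on the value added. With 10 added their log2 ratios in HY were 2.17 and 1.72, below the 2.50 of the triacylglycerol lipase. Among the lowest ratios in 932, the triacylglycerol lipase was at place 8 of 2708.

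The HY heat library read higher than HY control over much of the table, so member ratios were also taken relative to the median gene. On that footing the log2 ratios in HY were 2.19 for the triacylglycerol lipase, 3.79 for intestinal lipase 6, 3.15 for BGIBMGA001508, 3.61 for BGIBMGA001507 and 4.19 for BGIBMGA011777. The ratio of BGIBMGA003920 in HY turned from 0.18 to -0.16, so this gene has no fixed direction there. Of all genes past 2-fold in HY, 75.5% were higher, but 34.4% after centring on the median gene, 46.9% with median-of-ratios size factors and 54.8% when the 20 most abundant genes were left out of the totals.

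**Figure D3:**
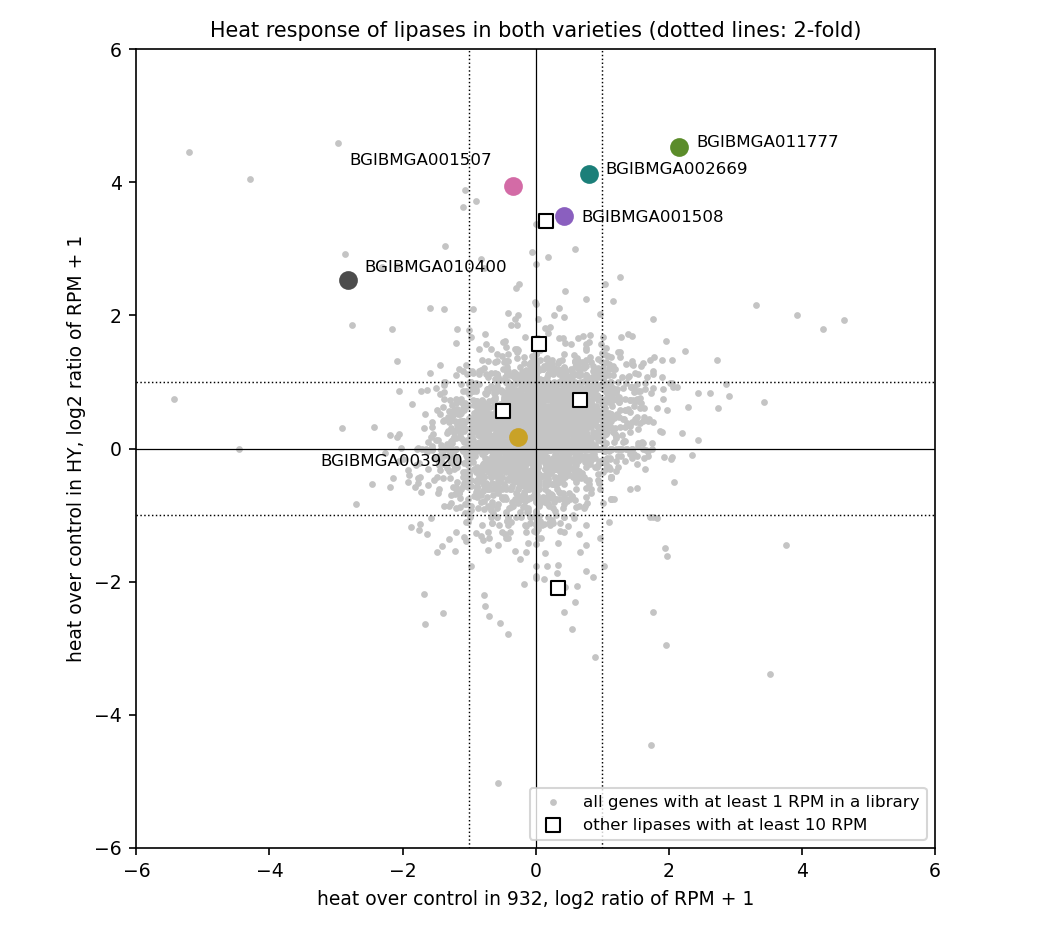
Heat response in 932 (x axis) against HY (y axis), both as the log2 ratio of RPM plus 1. Grey points are all genes with at least 1 RPM in a library, and coloured points the 6 members. Open squares are other lipases with at least 10 RPM, phospholipases left out, and dotted lines mark 2-fold. The triacylglycerol lipase lies at -2.82 and 2.53, and the other 4 raised members lie between 3.49 and 4.53 on the HY axis.

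Between the varieties, 5 of 6 members were higher in 932 under control and 1 lower, against 33% of 2780 genes in either direction, 17.9% higher and 15.1% lower, with a median of 4.46 for the members and 0.05 for all genes. After heat 2 of 6 were higher in 932, intestinal lipase 6 at a log2 ratio of 1.03 and BGIBMGA001508 at 2.10, and 1 lower, against 34.8% of 2990 genes in either direction, 14.1% higher and 20.8% lower. The medians were 0.59 and -0.26. BGIBMGA011777 stood at 0.90 after heat, below the threshold, and at 1.16 relative to the median gene. BGIBMGA003920 was at place 5 from the lowest of 2780 genes under control and at place 2 of 2990 after heat. Of all genes past 2-fold after heat 40.4% were higher in 932, against 60.3% after centring and 56.9% with size factors. Under control the split was 54.4%, or 40.5% with the 20 most abundant genes left out of the totals.

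The signed log2 heat response was lower in 932 than in HY by at least 2-fold for 5 of 6 members and higher for none, against 26.9% of 3214 genes in either direction, 18.8% lower and 8.09% higher. For the triacylglycerol lipase this sets a lower level after heat in 932 against a higher one in HY. The difference of the log2 responses (932 minus HY) was -5.35 for the triacylglycerol lipase, -4.29 for BGIBMGA001507, -3.32 for intestinal lipase 6, -3.06 for BGIBMGA001508, -2.37 for BGIBMGA011777 and -0.45 for BGIBMGA003920. It is the same quantity as the change of the variety gap with heat, and with 1 pair of libraries behind each response it was not tested. From tag numbers, with an approximate 95% interval for counting error, the difference was -5.35 [-5.42 to -5.29] for the triacylglycerol lipase and -0.55 [-1.55 to 0.46] for BGIBMGA003920, which included 0. With each response centred on its median gene the 6 differences ran from -5.04 to -0.13. Of all genes past 2-fold 30.1% were higher in 932, against 58.0% after that centring, 47.8% with size factors and 51.2% with those 20 genes left out of the totals.

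**Figure D4:**
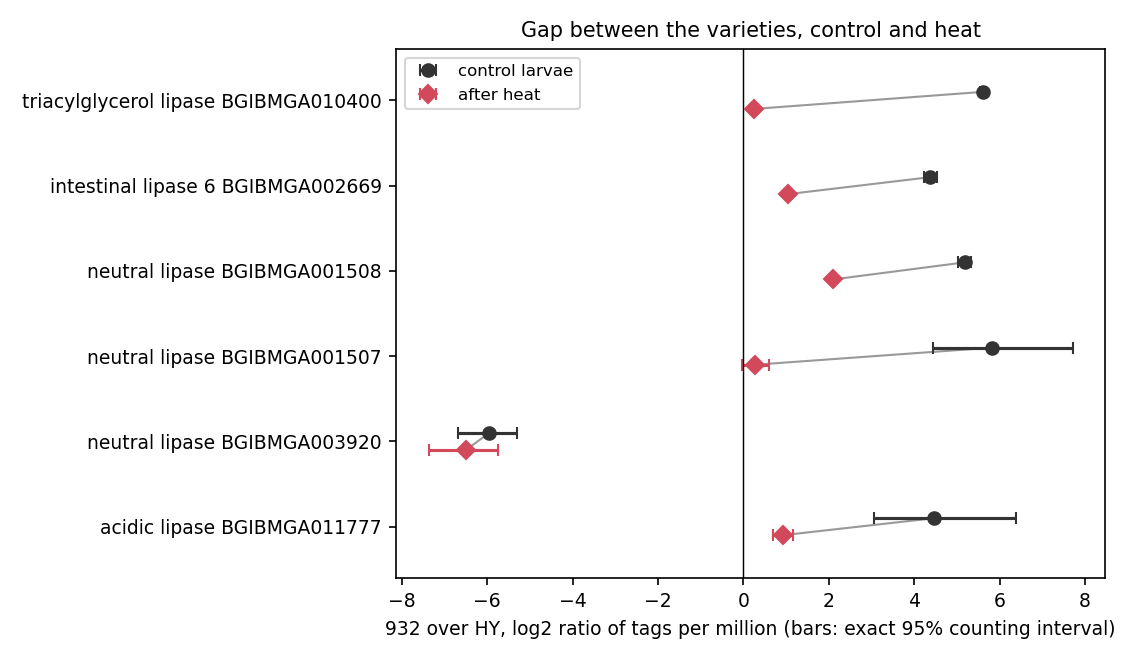
Log2 ratio of 932 over HY in tags, scaled to the library totals, for each lipase, in control larvae (circles) and after heat (diamonds), with exact 95% counting intervals as bars. For 5 genes the diamond lies nearer to 0 than the circle, as for the triacylglycerol lipase at 0.25 against 5.60, and BGIBMGA003920 stays at -5.95 and -6.50.

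By the shape of their profiles the members fell unevenly. Likeness was the root mean square difference of log2 values (RPM plus 1), each centred over the 4 libraries, and is a description over 4 points that share their libraries. Intestinal lipase 6 and BGIBMGA001507 were nearest to each other, at 0.43, and intestinal lipase 6 and BGIBMGA001508 differed by 0.53. BGIBMGA001507 and BGIBMGA001508, which share a best hit, differed by 0.68. The triacylglycerol lipase was 1.04 to 1.94 from the other 4 members that were low in HY control. The acidic lipase was nearest to intestinal lipase 6, at 0.59. BGIBMGA003920 was 4.31 to 4.85 from every other member.

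Outside the set, the 3 most similar profiles were sought for each member among 778 named genes with at least 10 RPM in a library. For the triacylglycerol lipase these were an insect intestinal mucin (BGIBMGA001480) at 0.27, a hatching enzyme-like protein (BGIBMGA007915) at 0.30 and MG7 (BGIBMGA011598) at 0.42. The mucin is one of the midgut markers whose values are given above, and like this lipase it was highest in 932 control and lowest in HY control. For intestinal lipase 6, BGIBMGA001508 and BGIBMGA001507 the lists overlapped and held proteases: BGIBMGA003605, a trypsin-like proteinase, and BGIBMGA004445, a serine protease named for the silk gland, were in all 3. Midgut carboxypeptidase A1 (BGIBMGA009478) was nearest to intestinal lipase 6 at 0.57 and to BGIBMGA001508 at 0.30, and serine protease 36 (BGIBMGA008515) was in the list of BGIBMGA001507 at 0.45. The trypsin-like proteinase, at 0.22 from BGIBMGA001507, read 1500 RPM in 932 control, 803 in 932 heat, 57.4 in HY control and 768 in HY heat.

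For the acidic lipase BGIBMGA011777 the nearest was another acidic lipase, BGIBMGA010639, at 0.97, followed by a serine protease precursor (BGIBMGA014427) at 1.02 and carboxypeptidase A1 at 1.08. BGIBMGA003920 was nearest to a putative heat shock protein 70-interacting protein (BGIBMGA010635) at 0.17, an inward rectifier potassium channel (BGIBMGA013821) at 0.34 and a glycosyl hydrolase of family 31 (BGIBMGA007198) at 0.40. The first of these read 1.95 and 2.23 RPM in 932 and 137.95 and 157.5 RPM in HY, control before heat.

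Other lipases in the table showed part of the same pattern. Lipase-1 (BGIBMGA002670), a silkworm digestive juice lipase known for activity against a baculovirus, read 17097 RPM in 932 control, 12105 in 932 heat, 1635 in HY control and 2427 in HY heat, so heat moved it by less than 2-fold in both varieties. The acidic lipases that share the hit of BGIBMGA011777 read, in the same order, 405, 451, 63.8 and 694 RPM for BGIBMGA010639, and 1444, 1501, 442 and 1317 RPM for BGIBMGA010640. Both were thus at least 2-fold higher after heat in HY and within 2-fold in 932, like intestinal lipase 6, BGIBMGA001508 and BGIBMGA001507. Their 932 to HY ratios after heat differed: 0.650 [0.619 to 0.683] for BGIBMGA010639 and 1.14 [1.10 to 1.17] for BGIBMGA010640. For those members, in the order named, these ratios were 2.05, 4.28 and 1.21. The acidic lipase BGIBMGA005673 read 12.9, 21.1, 1.72 and 3.50 RPM, and kept its variety gap after heat. A pancreatic lipase-like gene (BGIBMGA011895) read 35.0, 44.4, 107.95 and 24.5 RPM. It was lower after heat in HY, where no member was lower. Under control it was lower in 932 than in HY, which among the members only BGIBMGA003920 was. A phospholipase A2 of group VI (BGIBMGA011625), which acts on membrane lipids, read 14.7, 9.09, 7.24 and 5.16 RPM.

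Without the members, 2 of 7 genes of the lipase list were higher after heat in HY and 1 lower, with a median of 0.57, and under control 5 of 9 were higher in 932 and 2 lower, with a median of 1.71. For heat in 932 none of 9 passed 2-fold, with a median of 0.06. After heat 4 of 9 were higher in 932 and 1 lower, with a median of 0.83. Over all genes 14.1% were higher and 4.59% lower for heat in HY, and 17.9% and 15.1% for 932 over HY under control. For heat in 932 these shares were 11.1% and 9.86%, and for 932 over HY after heat 14.1% and 20.8%. Some calls after heat rested on few tags, 932 before HY: 6 against 0 and 13 against 2 among the higher genes, and 0 against 9 for the lower one. Some calls under control did so too: 14 against 0 among the higher genes, and 0 against 7 among the lower ones. The 16 models with a lipase name other than phospholipases, members included, held 24.4% of the tags of listed genes in 932 control, 14.9% in 932 heat, 2.62% in HY control and 6.15% in HY heat.

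The list of lipid uptake and transport holds genes that act after the lipases. Of that list 1 of 9 was higher and 1 lower for heat in 932 (median -0.08), and 2 of 10 were higher for heat in HY (0.48). For 932 over HY, 2 of 9 were higher and 1 lower under control (0.74), and 2 of 9 were lower after heat (-0.11). The shares of all genes were 11.1% higher and 9.86% lower for heat in 932, and 14.1% higher for heat in HY. For 932 over HY they were 17.9% higher and 15.1% lower under control, and 20.8% lower after heat. Nothing is read from these counts. A fatty acid binding protein (BGIBMGA012890), which carries fatty acids inside the cell, read 21.0 RPM in 932 control, 7.55 in 932 heat, 5.35 in HY control and 51.1 in HY heat. Its log2 heat ratios were -1.36 in 932 and 3.04 in HY, opposite in sign and past 2-fold as for the triacylglycerol lipase. This was not particular to lipid genes: beta-galactosidase (BGIBMGA006815), a gene of carbohydrate digestion, had -2.98 in 932 and 4.59 in HY. For the fatty acid binding protein HY control read lowest, as for 5 members, but close to 932 heat, and no counting interval was taken between them. Its highest library was HY heat. The more often tagged BGIBMGA012944, with the same product name and named here after its values were seen, read 988, 1251, 1117 and 1373 RPM in that order, within 2-fold throughout. A fatty acid transport protein (BGIBMGA006185) read 0.49 RPM in 932 control and 3.26 in 932 heat. The apolipophorin precursor (BGIBMGA013342), part of the particle that carries lipid in the blood, read 4.14 in HY control and 9.99 in HY heat, against 2.75 in 932 heat. Niemann-Pick C1 (BGIBMGA008348), a sterol transporter, read 8.14 in 932 control and 2.76 in HY control.

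Other gene lists give the setting. Over all genes 11.1% were higher and 9.86% lower for heat in 932, and 14.1% and 4.59% for heat in HY. For 932 over HY the shares were 17.9% and 15.1% under control, and 14.1% and 20.8% after heat. Nothing is read from counts near these shares. Genes of fat resynthesis and activation numbered 2 or 3 above the floor, and of these 1 was past 2-fold, for heat in 932: cardiolipin synthase 1 (BGIBMGA005160), an enzyme of mitochondrial membrane lipid that the name pattern took in, at 8.31 and 25.2 RPM. In the list of intracellular lipid use 1 of 11 genes was lower for heat in 932 (median -0.56) and 2 of 11 for heat in HY (0.17), and none was higher in either. The lower gene in 932 was a 3-hydroxyacyl-CoA dehydrogenase (BGIBMGA000511), an enzyme of fatty acid oxidation, at 53.4 RPM in control and 25.9 after heat. In HY they were a fatty acid desaturase (BGIBMGA010611), at 34.8 RPM in control and 15.5 after heat, and an enoyl-CoA hydratase precursor (BGIBMGA005656). The hydratase was near the floor, at 1.21 RPM in HY control and 0 in HY heat, and read 3.75 RPM in 932 control. Under control 2 of 11 were higher in 932 and 1 lower, and after heat 2 of 10 were higher and 3 lower. The serine protease list, by product name, held protein-digesting enzymes but also took in protease inhibitors. In it 10 of 31 genes were lower and 2 higher for heat in 932, and 10 of 32 were higher and 3 lower for heat in HY. Under control 16 of 33 were higher in 932 and 6 lower, and after heat 11 of 35 and 7. With the inhibitors left out, a choice made after seeing the data, 9 of 27 were lower and 1 higher for heat in 932, and 9 of 26 higher and 3 lower for heat in HY. Under control 16 of 29 were then higher in 932 and 3 lower, and after heat 10 of 28 and 4. The carbohydrate digestion list had 1 of 14 higher and 1 lower for heat in 932, 2 of 12 higher and 2 lower for heat in HY, 6 of 14 higher in 932 and 1 lower under control, and 5 of 13 and 1 after heat.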

How the data were processed

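Midgut RNA (Trizol; Illumina libraries, per the labels' protocols) gave 4 libraries, placed in their groups by the variety and stress labels. The deposited values are headed normalized TPM per the file headers, but they behave as RPM without a length correction. The aligner, counting method and build are not given in the sources used here. In each column 100% of the values were whole tags within 0.0051 RPM at the stated total, the lowest value above 0 being 2 tags, so a gene listed at 0 may hold 1 tag. A tag was worth 0.163 to 0.172 RPM.

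Ratios were taken as log2 of the value plus 1, with a floor of 1 RPM in 1 of the libraries compared and a call at 2-fold. This understates the change of low genes. Folds with intervals come from tag numbers (exact conditional, Clopper-Pearson), levels from exact Poisson intervals, shares from exact binomial ones. With 1 library per group no p-value was computed. Members and gene lists were chosen with earlier results of these data known. Lists were made by product name. Named were the members, other lipases with at least 10 RPM, up to 4 genes with the greatest change from a list described (at least 3 RPM), and the 3 nearest profiles. Serine protease and carbohydrate genes are given as counts, except for BGIBMGA006815 and where they were nearest profiles. BGIBMGA012944 was added after its values were seen. Member sequences were not used here. Alternatives were other scalings, floors, added values, thresholds and lists. Calculations were tested on simulated data. Software was scipy 1.17.1, pandas 2.3.3 and numpy 2.4.6 under Python 3.11.15, with matplotlib 3.10.9 for plots.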

Additional observations from a re-analysis of the deposited data

Results flagged for a closer look

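In 3 members the heat response had opposite signs in the varieties, each on 1 pair of libraries, and the differences were not tested. Any difference in sign was flagged, whatever its size. Of all genes above the floor, the ratio was above 0 in 1374 of 2708 for heat in 932 and in 1940 of 2810 for heat in HY. The share of all genes with opposite signs was not taken, so nothing is read from the count of members. The triacylglycerol lipase (BGIBMGA010400) had a log2 ratio of -2.82 in 932 and 2.53 in HY, both far outside counting error. The neutral lipase BGIBMGA001507 had -0.34 in 932, under 2-fold, and 3.95 in HY, where the control held 4 tags. The neutral lipase BGIBMGA003920 had -0.27 in 932, within counting error, and 0.18 in HY, which turned to -0.16 relative to the median gene.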

How the results depend on the processing

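No paired analysis was possible because each group has 1 library, which also leaves no replicate to leave out. A floor only decides which genes are kept and leaves a ratio unchanged. Agreement with no floor and with a floor of 10 was therefore fixed in advance. With those repeats included, 239 member ratios were taken under other scalings, floors and added values. Of these, 236 stayed on their side of 2-fold and none of the called ratios turned direction. The exceptions concern BGIBMGA011777: 932 over HY after heat reached 1.17 with size factors and 1.16 after centring, and the difference of the responses fell short at -0.47 with 10 added. At a 4-fold rule, or with whole intervals beyond 2-fold, 1 member rather than 2 was higher in 932 after heat. Of 2990 genes, 239 and 516 passed these rules in either direction, and 42.7% and 46.1% of those were higher in 932. Nothing is read from the member count. The share of tags held by the members in 932 control, 932 heat, HY control and HY heat was 1.88%, 3.45%, 0.271% and 1.36% without the triacylglycerol lipase, and 2.64%, 0.847%, 0.0784% and 0.475% of all library tags. The nearest profiles by largest absolute difference shared 15 of 18 genes.

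The median of the lipase list also depended on the setting. For heat in HY it was 1.57, and 1.23 with size factors, 1.24 after centring, 1.30 with totals without the 20 most abundant genes, 0.37 with no floor, 2.97 with a floor of 10, 2.53 without phospholipases and 0.57 without the members. For heat in 932 it was 0.06, and 0.16 with a floor of 10 or without phospholipases. For 932 over HY under control it was 2.35, and 2.10 without the 20 most abundant genes, 2.83 with 0.1 added, 1.24 with 10 added, 0.93 with no floor, 2.96 with a floor of 10 or without phospholipases and 1.71 without the members. For 932 over HY after heat it was 0.83, and 1.03, 1.09, 0.25 and 0.42 with size factors, centring, 10 added and no floor. For the difference it was -0.94, and -0.75 with size factors, -0.63 after centring, -0.66 without the 20 most abundant genes, -1.30 with 0.1 added, -0.36 with 10 added, -0.51 with no floor, -1.94 with a floor of 10, -1.52 without phospholipases and -0.45 without the members. The lists without the members, the shares of all library tags and ratios with 0.5 tag added were chosen after seeing the data. The cause was not tested.

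The number of all genes past the threshold depended on the rule. With a floor of 10, 10 added, a 4-fold rule and whole intervals it was 230, 90, 53 and 202 against 567 for heat in 932, and 205, 82, 63 and 170 against 526 for heat in HY. It was 360, 223, 259 and 498 against 918 for the varieties under control, and 394, 210, 239 and 516 against 1042 after heat. For the difference it was 346, 163 and 129 against 865, whole intervals not having been run over all genes. With 0.1 added it was 930, 859 and 1452 for heat in 932, heat in HY and the difference.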
